A study of Mus musculus with 8 samples.

Results

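The genes described here are the mouse genes named Psma, Psmb, Psmc, Psmd or Psme followed by a digit, which encode the subunits, activators and some assembly chaperones of the proteasome. They were taken by symbol alone from a table of 10639 genes. The inducible subunits Psmb8, Psmb9 and Psmb10 were left out and are given only for comparison, and 42 genes remained. Of these, 39 encode parts, activators or assembly chaperones of the proteasome. The other 3 were taken by the start of the symbol and are not counted among these. Psmc3ip encodes a recombination protein, Psme3ip1 a protein that binds the activator encoded by Psme3, and Psme2b is a copy of Psme2. The rule itself uses symbols and no measured value. Psmb11, the subunit of thymic epithelium, was in the gene annotation but not among the genes of the table, and was not analysed here.

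Gene expression had been measured by RNA sequencing in RAW264.7 cells, a macrophage-like mouse line derived from a tumour induced by Abelson leukaemia virus. The 4 groups were cells given lipopolysaccharide (LPS) together with antibodies against CD36, cells given LPS, cells given the antibodies, and untreated cells, with 2 libraries in each. LPS is a bacterial cell wall component and CD36 is a scavenger receptor for lipids. The LPS dose was 50 ng/mL and the antibody dilution 1 in 100. Treatment lasted 12 h, also for the combination, whose label gives no doses. All groups were labelled wild type. No group received an antibody of another specificity, so an effect of binding CD36 and an effect of any antibody cannot be told apart. Nothing in the labels says that the 2 libraries of a group came from separate cultures, so the p-values below rest on a spread between libraries that may be technical.

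The 26S proteasome degrades proteins tagged with ubiquitin. Its 20S core is a barrel of alpha rings, which gate the entrance, around beta rings, which hold the proteolytic sites. The 19S particle caps the barrel: its ATPases unfold the substrate, its base and lid bind ubiquitin chains and take them off. In macrophages and other immune cells, interferon and inflammatory signals are known to bring in inducible beta subunits and the PA28 activator, whose products feed antigen presentation. The transcription factor NFE2L1 is known to raise proteasome genes together when proteasome activity is short.

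Levels are given in FPKM (fragments per kilobase of transcript, scaled to library depth), which corrects for gene length. Differences are on the log2(FPKM + 1) scale with their standard errors (SE), and a gene is called higher or lower at a limma Benjamini-Hochberg adjusted p under 0.05 over the 10289 genes tested. All 42 members passed the filter on low values. Since the samples are bulk cultures, fewer cells of a type and less RNA per cell cannot be told apart.

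Before the values, DNA upstream of 7 members is shown, to make visible the kinds of motif counted below. Psmc6, Psmd12, Psmb5 and Psmb6 hold the NFE2L1 motif, while Psma6, Psmd11 and Psme2 are members with large LPS differences. They were chosen after their values were seen, and other members with large differences are not shown. RefSeq promoters (GRCm38.p6, 250 bases before to 50 bases after a gene's start) were found for 35 of the 42 members. Each line holds 60 of the 250 bases before a RefSeq start, 5′ to 3′ on the gene's own strand, with the motif in capitals. The window covers bases 250 to 191 before the start in Psmc6 and Psmd12, 87 to 28 in Psmb5, 93 to 34 in Psme2 and 60 to 1 in the others. RefSeq and GENCODE can place a start differently, and no window overlaps an exon of the GENCODE annotation. The first 4 hold TGACNNNGC, the core of the antioxidant response element that NFE2L1 and NFE2L2 bind, or its reverse complement.
Psmc6, chr14:45329574-45329633, plus strand: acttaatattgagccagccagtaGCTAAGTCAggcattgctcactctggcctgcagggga
Psmd12, chr11:107479278-107479337, plus strand: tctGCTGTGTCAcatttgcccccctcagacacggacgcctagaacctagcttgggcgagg
Psmb5, chr14:54618023-54618082, minus strand: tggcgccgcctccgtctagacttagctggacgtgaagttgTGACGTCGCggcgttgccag
Psmb6, chr11:70525297-70525356, plus strand: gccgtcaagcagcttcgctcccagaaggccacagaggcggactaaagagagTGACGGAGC
Psma6, CCAAT box, chr12:55384162-55384221, plus strand: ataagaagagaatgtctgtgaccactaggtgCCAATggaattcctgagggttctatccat
Psmd11, GC box GGGCGG, chr11:80428555-80428614, plus strand: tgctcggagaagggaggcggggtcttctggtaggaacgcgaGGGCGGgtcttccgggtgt
Psme2, GC box as its reverse complement, chr14:55591135-55591194, minus strand: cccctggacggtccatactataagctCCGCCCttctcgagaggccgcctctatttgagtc

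The motifs were searched on both strands over the whole promoter, among 18 patterns of which some overlap each other. A member counted when any of its promoters matched (39 promoters for 35 members), whereas the shares of all were taken per promoter. The members' shares per promoter were not counted, so the effect of that difference in unit is not known. TGACNNNGC was found in 6 of the 35 members (17.1%), against 12.4% of 32851 RefSeq promoters of the same length. CCAAT was found in 14 members (40%), against 37.4% of all promoters. GGGCGG was found in 22 members (62.9%), against 35.7% of all. CCGGAAGT, a sequence bound by ETS factors, was found in 8 members (22.9%), against 3.89% of all. GGAAGTG, which overlaps that pattern, was found in 8 members (22.9%), against 11.0% of all. The other patterns, some of them less frequent in the members than in all promoters, are not given. All RefSeq promoters were the background, not only those of the genes tested here. The matches are descriptions of these windows, not binding sites.

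The libraries held 47900000 to 71700000 reads, as recovered from the steps of single reads in short genes. For Psme2b, the lowest member, that equals about 71 to 171 reads per library, whereas Psma6 had about 9793 to 60762. Anti-CD36 replicate 1 stood apart. Mitochondrially encoded genes took 15.7% of its summed FPKM and 6.59% of that of anti-CD36 replicate 2, against 3.28% to 6.62% in the other 6 libraries. Of 8 macrophage markers, 7 were in the table, and their summed level was 2047 and 2311 FPKM with the combination, 2590 and 2817 FPKM with LPS, 4052 and 4558 FPKM with the antibodies and 3081 and 3595 FPKM in untreated cells. Lyz2 made up most of that sum, and single markers moved in opposite directions. Adgre1, Itgam and Ptprc were called higher and Csf1r lower with LPS than in untreated cells (log2 differences 2.59, 0.91, 0.84 and -1.57), and the same with the combination (2.42, 0.89, 0.45 and -2.001). Of the markers of fibroblasts, epithelium and endothelium 0 were in the table. Those of B cells (2 of 6) summed to 79.1 and 83.0 FPKM with the combination, 76.3 and 78.6 FPKM with LPS, 68.04 and 110 FPKM with the antibodies and 84.7 and 87.5 FPKM in untreated cells, nearly all from Ighm. Lck, the 1 of 5 T and NK cell markers in the table, stood at 4.15 and 4.15 FPKM with the combination, 4.21 and 4.32 FPKM with LPS, 1.72 and 1.87 FPKM with the antibodies and 2.00 and 1.89 FPKM in untreated cells. Those of dendritic cells (2 of 4) summed to 3.62 and 3.69 FPKM with the combination, 2.12 and 2.41 FPKM with LPS, 0.452 and 0.461 FPKM with the antibodies and 0.476 and 0.402 FPKM in untreated cells. Lck, Fscn1 of the dendritic list and Cd79b of the B cell list were thus higher with LPS, as many proteasome genes were, and their part in the results was not tested. Csf3r, the 1 of 6 granulocyte markers in the table, was between 2.97 and 4.92 FPKM in every library. Cd36 itself stood at 7.98 and 9.08 FPKM with the combination, 4.71 and 5.57 FPKM with LPS, 0.169 and 0.223 FPKM with the antibodies and 0.0400 and 0.117 FPKM in untreated cells.

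As a whole, proteasome transcripts took the largest share of the library in cells given LPS and antibodies. The 42 members made up 1.44% and 1.40% of the summed FPKM with the combination, 1.24% and 1.22% with LPS, 0.839% and 1.04% with the antibodies and 0.932% and 0.858% in untreated cells. The combination libraries lay above both LPS libraries, and those above all 4 libraries without LPS. The 14 constitutive subunits of the 20S core summed to 2861 and 2614 FPKM with the combination, 2228 and 2094 FPKM with LPS, 1166 and 1811 FPKM with the antibodies and 1298 and 1061 FPKM in untreated cells. The summed FPKM of all genes differed between libraries, from 280146 in untreated replicate 2 to 353603 in combination replicate 1. As shares, the 20S sums were 0.809% and 0.760% with the combination and 0.669% and 0.647% with LPS. They were 0.363% and 0.547% with the antibodies and 0.442% and 0.379% in untreated cells. The 17 members of the 19S particle summed to 1642 and 1636 FPKM with the combination, 1375 and 1363 FPKM with LPS, 1184 and 1257 FPKM with the antibodies and 1109 and 1029 FPKM in untreated cells. As shares, these were 0.464% and 0.475% with the combination and 0.413% and 0.421% with LPS. The antibody shares, 0.369% and 0.379%, overlapped with those of untreated cells, 0.377% and 0.367%. Although the core holds these subunits in equal numbers, their transcripts did not stand at equal levels. The highest 20S transcript stood 11.8 and 11.3 times above the lowest with the combination, 8.85 and 9.06 times with LPS, 10.8 and 6.12 times with the antibodies and 4.93 and 4.82 times in untreated cells.

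**Figure D1:**
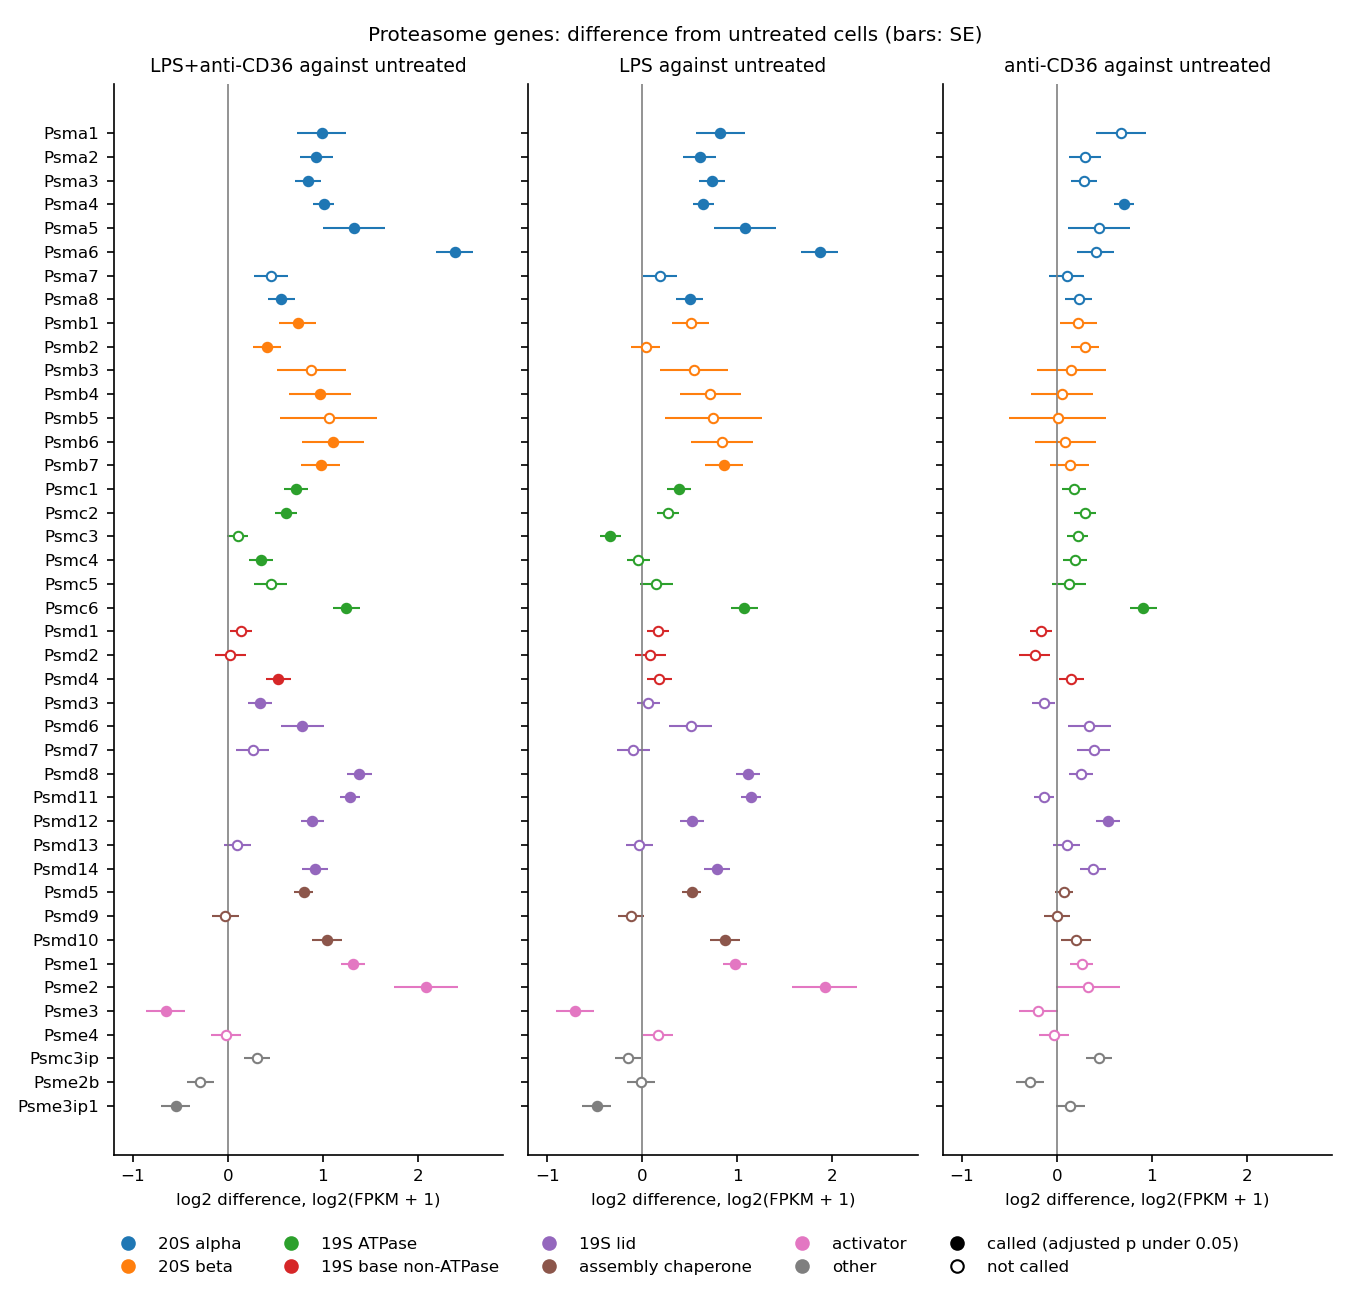
Log2 difference from untreated cells, on the log2(FPKM + 1) scale, of each of the 42 genes (1 per row, coloured by role) with the combination, LPS and the antibodies. Bars are SE, and filled points are called at an adjusted p under 0.05. Psma6 and Psme2 lie farthest to the right with LPS (1.87 and 1.92), and 3 points are filled with the antibodies.

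With LPS, against untreated cells, 18 of the 42 members were called higher and 3 lower, where 17% of all tested genes were called higher and 37.5% lower. The median difference of the members was 0.51, against -0.19 over all genes. In 29 members both LPS libraries lay above both untreated ones, and in 6 both lay below, against 30.6% and 54.5% of all genes. The higher calls covered 7 of 8 alpha subunits, 1 of 7 beta subunits, 2 of 6 ATPases, 0 of 3 other base subunits, 4 of 8 lid subunits, 2 of 3 assembly chaperones and 2 of 4 activators. Yet the median difference was 0.69 for alpha and 0.72 for beta subunits, positive in all 8 and all 7. It was 0.21 for ATPases, 0.16 for other base subunits, 0.52 for lid subunits, 0.52 for chaperones and 0.57 for activators. The count of higher calls was 11 without LPS replicate 1, against 10.6% of all genes. The count of lower calls was 0 without either LPS library or either untreated library, against 24.4% to 29.2% of all genes, and 1 without either combination library. Scaling by median-ratio size factors moved the median of all genes to 0.01 and that of the members to 0.74, with 25 members called higher and 0 lower, against 26% and 26.4% of all genes.

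Among the alpha subunits, Psma6 (chr12:55384222-55418454, plus strand) changed most. It stood at 806 and 776 FPKM with the combination, 574 and 530 FPKM with LPS, 166 and 240 FPKM with the antibodies and 158 and 143 FPKM in untreated cells. All 4 libraries with LPS lay above all 4 without it, and the combination lay above LPS. Its mean was 3.68 times that of untreated cells with LPS (log2 difference 1.87 ± 0.19 SE, adjusted p = 0.00021) and 5.27 times with the combination (2.39 ± 0.19 SE, adjusted p = 5.9e-05). With LPS it was the most abundant 20S transcript, whereas Psmb4 and Psmb2 led in the untreated libraries.

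Psma5, also a ring subunit, stood at 411 and 338 FPKM with the combination, 316 and 311 FPKM with LPS, 140 and 289 FPKM with the antibodies and 173 and 126 FPKM in untreated cells. Psma1 stood at 85.2 and 79.7 FPKM with the combination, 74.2 and 72.3 FPKM with LPS, 47.9 and 91.2 FPKM with the antibodies and 42.6 and 39.5 FPKM in untreated cells. In both genes the antibody libraries differed by about as much as LPS and untreated cells did. The LPS difference was 1.08 ± 0.32 SE for Psma5 (adjusted p = 0.025) and 0.82 ± 0.26 SE for Psma1 (adjusted p = 0.030), and both calls were lost without either LPS library or without untreated replicate 2. Psma1 also lost its call without untreated replicate 1 or either combination library.

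Psma4 differed less between replicates. It stood at 104 and 109 FPKM with the combination, 85.0 and 80.0 FPKM with LPS, 86.2 and 86.3 FPKM with the antibodies and 53.6 and 51.3 FPKM in untreated cells. LPS and the antibodies gave levels close to each other, both above untreated cells and below the combination. The differences from untreated cells were 1.01 ± 0.11 SE with the combination (adjusted p = 0.00021), 0.64 ± 0.11 SE with LPS (adjusted p = 0.0020) and 0.71 ± 0.11 SE with the antibodies (adjusted p = 0.016). Psma2 stood at 97.3 and 95.5 FPKM with the combination, 81.0 and 72.3 FPKM with LPS, 53.2 and 71.9 FPKM with the antibodies and 55.0 and 45.5 FPKM in untreated cells. Psma3 stood at 74.1 and 79.2 FPKM with the combination, 74.2 and 67.7 FPKM with LPS, 46.4 and 57.7 FPKM with the antibodies and 44.2 and 40.3 FPKM in untreated cells. In both genes all libraries with LPS lay above all without it. Psma2 and Psma3 were higher with LPS by 0.60 and 0.73 (adjusted p = 0.020 and 0.0033), and Psma2 lost that call without either LPS library or untreated replicate 2. Psma8, the testis form that takes the place of Psma7, was listed at 4.73 to 8.44 FPKM. It is 76.8% identical to Psma7 over 641 aligned bases, and the treatment of reads that match both is not known.

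The proteolytic beta subunits were more variable. Psmb5, which carries the chymotrypsin-like site, stood at 91.3 and 70.9 FPKM with the combination, 66.6 and 62.2 FPKM with LPS, 19.9 and 72.6 FPKM with the antibodies and 46.2 and 31.2 FPKM in untreated cells. The antibody libraries were the lowest and the second highest of the 8. Its LPS difference was 0.75 ± 0.51 SE (adjusted p = 0.25), and no comparison over the 8 libraries called it. The antibody difference was 0.01 ± 0.51 SE (adjusted p = 0.99), but 0.92 without antibody replicate 1 (adjusted p = 0.014) and -0.90 without antibody replicate 2 (adjusted p = 0.020). The antibody effect thus had opposite signs with either library alone. Psmb6, with the caspase-like site, stood at 208 and 182 FPKM with the combination, 167 and 156 FPKM with LPS, 66.7 and 137 FPKM with the antibodies and 108 and 74.9 FPKM in untreated cells. It missed the threshold with LPS (0.84 ± 0.32 SE, adjusted p = 0.060) and passed it with the combination (1.11 ± 0.32 SE, adjusted p = 0.020), a call lost without either combination library or without untreated replicate 2.

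Psmb7, with the trypsin-like site, stood at 68.4 and 70.0 FPKM with the combination, 66.3 and 61.1 FPKM with LPS, 30.8 and 47.2 FPKM with the antibodies and 38.6 and 31.1 FPKM in untreated cells. All LPS and combination libraries lay above the others. It was the beta subunit called with LPS (0.86 ± 0.20 SE, adjusted p = 0.0089), without LPS replicate 1 or untreated replicate 2 no longer. The 4 beta subunits with no catalytic site were led by Psmb4, at 365 and 297 FPKM with the combination, 286 and 268 FPKM with LPS, 120 and 252 FPKM with the antibodies and 190 and 148 FPKM in untreated cells. Its difference reached the threshold with the combination alone among the comparisons with untreated cells (0.97 ± 0.33 SE, adjusted p = 0.034), and was lost when any LPS, combination or untreated library was left out.

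Calls among the beta subunits depended on the antibody libraries, which share the estimate of the spread. When either antibody library was left out, Psmb4, Psmb5, Psmb6 and the inducible Psmb8 and Psmb9 were each called higher with LPS. Their LPS differences did not change (0.72, 0.75, 0.84, 0.97 and 0.61), only the shared spread did. Psmb5 was then also called higher with the combination, again with the same difference (1.06 ± 0.51 SE over all 8 libraries). More of all tested genes were called in those fits as well, so the gain was not particular to beta subunits.

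The inducible partners of these 3 subunits each stood higher in both LPS libraries than in both untreated ones, and 1 of the 3 was called. Psmb10, which takes the place of Psmb7, stood at 104 and 85.5 FPKM with the combination, 80.6 and 75.6 FPKM with LPS, 19.7 and 41.5 FPKM with the antibodies and 27.8 and 19.7 FPKM in untreated cells. It was called higher with LPS (1.69 ± 0.32 SE, adjusted p = 0.0033). Its ratio to Psmb7 was 1.51 and 1.22 with the combination, 1.22 and 1.24 with LPS, 0.638 and 0.879 with the antibodies and 0.721 and 0.634 in untreated cells. Psmb8, the partner of Psmb5, stood at 29.7 and 22.6 FPKM with the combination, 27.4 and 24.3 FPKM with LPS, 9.60 and 24.3 FPKM with the antibodies and 15.5 and 10.4 FPKM in untreated cells. Its ratio to Psmb5 was 0.326 and 0.318 with the combination, 0.411 and 0.390 with LPS, 0.481 and 0.335 with the antibodies and 0.336 and 0.334 in untreated cells. That ratio was highest in antibody replicate 1 and lowest in the combination libraries. Psmb9, the partner of Psmb6, stood at 16.4 and 13.4 FPKM with the combination, 13.2 and 13.1 FPKM with LPS, 5.26 and 13.4 FPKM with the antibodies and 9.71 and 6.996 FPKM in untreated cells. Its ratio to Psmb6 was 0.0787 and 0.0735 with the combination, 0.0786 and 0.0844 with LPS, 0.0790 and 0.0978 with the antibodies and 0.0903 and 0.0934 in untreated cells. Both LPS libraries and both combination libraries thus lay below both untreated ones in that ratio. The LPS difference was 0.97 ± 0.38 SE for Psmb8 (adjusted p = 0.064) and 0.61 ± 0.35 SE for Psmb9 (adjusted p = 0.17). With 2 libraries against 2, an exact permutation test of a ratio cannot go below a two-sided p of 0.333, so the ratios carry no test.

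**Figure D2:**
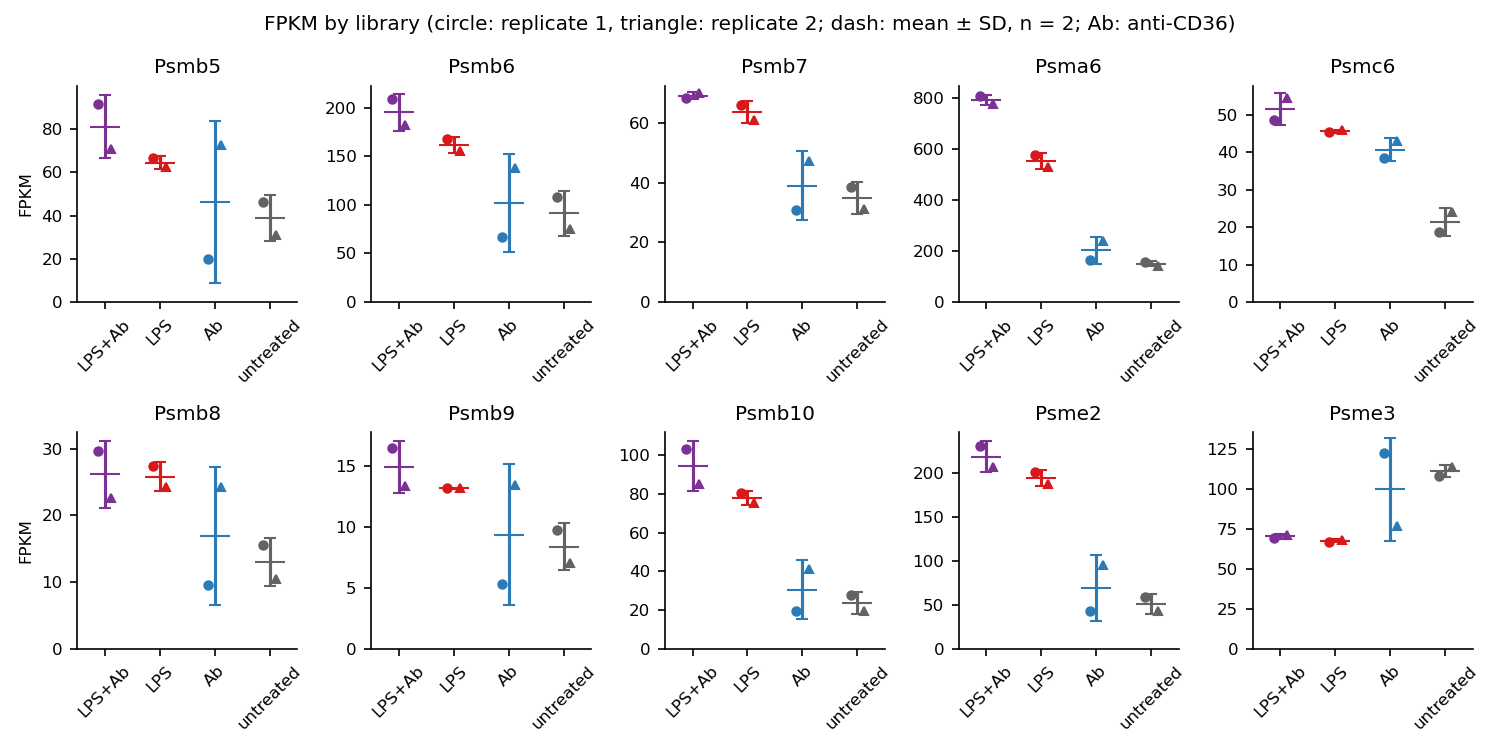
FPKM of 7 members and of the inducible Psmb8, Psmb9 and Psmb10 in each library (circle for replicate 1, triangle for replicate 2, dashes and bars for the mean ± SD, n = 2), with each axis starting at 0. Psma6 is at 530 to 806 FPKM in the libraries with LPS and at 143 to 240 FPKM in those without, and Psmb5 ranges from 19.9 to 72.6 FPKM within the antibody group.

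Of the 6 ATPases, Psmc6 changed most. It stood at 48.6 and 54.6 FPKM with the combination, 45.4 and 45.9 FPKM with LPS, 38.5 and 42.9 FPKM with the antibodies and 18.7 and 23.9 FPKM in untreated cells. The untreated libraries lay below the other 6. Its difference was 1.25 ± 0.14 SE with the combination (adjusted p = 0.00028), 1.08 ± 0.14 SE with LPS (adjusted p = 0.00065) and 0.91 ± 0.14 SE with the antibodies (adjusted p = 0.016). Psmc3 went the other way with LPS. It stood at 86.5 and 81.8 FPKM with the combination, 62.0 and 61.4 FPKM with LPS, 87.9 and 94.9 FPKM with the antibodies and 79.5 and 77.1 FPKM in untreated cells. Both LPS libraries lay below the other 6 (LPS against untreated -0.34 ± 0.11 SE, adjusted p = 0.033), but the call was lost without any 1 of the LPS, combination or untreated libraries and under size factors (-0.10). Its exons share bases with Slc39a13, and it is not known whether counting used the strand. Exons of Psma4, Psma5, Psmb5, Psmb7 and Psme1, among others, also share bases with another gene.

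Psmc1 stood at 185 and 208 FPKM with the combination, 154 and 157 FPKM with LPS, 132 and 139 FPKM with the antibodies and 123 and 115 FPKM in untreated cells. The groups did not overlap. It was called with the combination (0.72 ± 0.12 SE, adjusted p = 0.0020) and with LPS (0.38 ± 0.12 SE, adjusted p = 0.033), the second lost without either LPS or either untreated library. Psmc2 stood at 44.1 and 41.6 FPKM with the combination, 32.8 and 34.4 FPKM with LPS, 32.1 and 36.4 FPKM with the antibodies and 28.7 and 26.7 FPKM in untreated cells. The combination lay above all other libraries and was called against untreated cells (0.61 ± 0.11 SE, adjusted p = 0.0026).

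Of the 3 other base subunits, 0 were called with LPS and 1 with the combination. Psmd2, a scaffold of the base, stood at 133 and 118 FPKM with the combination, 129 and 132 FPKM with LPS, 90.9 and 121 FPKM with the antibodies and 131 and 116 FPKM in untreated cells. The groups overlapped, and antibody replicate 1 was the lowest. Psmd4, a ubiquitin receptor, stood at 136 and 125 FPKM with the combination, 103 and 101 FPKM with LPS, 93.8 and 107 FPKM with the antibodies and 95.8 and 84.5 FPKM in untreated cells. The combination lay above the other 6 libraries and was called higher than untreated cells (0.53 ± 0.13 SE, adjusted p = 0.010), a call lost without combination replicate 1 or untreated replicate 2. Psmd4 was also called higher with the combination than with the antibodies (0.38, adjusted p = 0.048). That call was lost in 11 of 19 alternatives, among them quantile normalization and a fit on only the groups compared.

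In the lid, Psmd11 and Psmd8 changed most. Psmd11, a scaffold of the lid, stood at 74.5 and 76.3 FPKM with the combination, 67.5 and 69.2 FPKM with LPS, 26.3 and 28.8 FPKM with the antibodies and 29.5 and 31.0 FPKM in untreated cells. The libraries with LPS lay above the others without overlap, and the antibody libraries were the lowest. The LPS difference was 1.15 ± 0.11 SE (2.26 times, adjusted p = 0.00012). Psmd8 stood at 264 and 265.0 FPKM with the combination, 229 and 208 FPKM with LPS, 128 and 114 FPKM with the antibodies and 102 and 98.9 FPKM in untreated cells. Its groups did not overlap, and its LPS difference was 1.11 ± 0.13 SE (2.17 times, adjusted p = 0.00032).

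Psmd14, the deubiquitinase of the lid, stood at 83.3 and 85.3 FPKM with the combination, 78.3 and 75.1 FPKM with LPS, 51.2 and 65.1 FPKM with the antibodies and 45.8 and 42.5 FPKM in untreated cells. The order of the groups was the same as for Psmd8. Its LPS difference was 0.79 ± 0.14 SE (adjusted p = 0.0023). Psmd12 stood at 83.8 and 97.5 FPKM with the combination, 68.2 and 71.4 FPKM with LPS, 74.5 and 67.1 FPKM with the antibodies and 47.7 and 48.9 FPKM in untreated cells. As with Psma4 and Psmc6, the untreated libraries were the lowest, with differences of 0.89 ± 0.12 SE with the combination (adjusted p = 0.00067), 0.52 ± 0.12 SE with LPS (adjusted p = 0.0091) and 0.54 ± 0.12 SE with the antibodies (adjusted p = 0.032). The LPS call was lost without either LPS library or untreated replicate 1. Psmd13, Psmd3 and Psmd7 were within 0.10 of 0 with LPS.

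Of the chaperones that assemble the base, Psmd10 stood at 63.2 and 65.4 FPKM with the combination, 58.0 and 55.4 FPKM with LPS, 30.7 and 40.8 FPKM with the antibodies and 33.4 and 27.9 FPKM in untreated cells. Psmd5 stood at 18.9 and 20.6 FPKM with the combination, 16.2 and 16.0 FPKM with LPS, 11.5 and 11.7 FPKM with the antibodies and 11.2 and 10.7 FPKM in untreated cells. In both genes all libraries with LPS lay above all without it. With LPS, Psmd10 was higher by 0.87 ± 0.16 SE (adjusted p = 0.0027) and Psmd5 by 0.52 ± 0.10 SE (adjusted p = 0.0033), while Psmd9 was at -0.12 ± 0.14 SE (adjusted p = 0.49).

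The activators split. Psme1 and Psme2, which encode the alpha and beta chains of PA28, lie close together on chromosome 14 (chr14:55578123-55581529, plus strand, and chr14:55587441-55591113, minus strand). Psme1 stood at 167 and 154 FPKM with the combination, 131 and 121 FPKM with LPS, 72.4 and 80.7 FPKM with the antibodies and 66.5 and 60.9 FPKM in untreated cells. Psme2 stood at 231 and 206 FPKM with the combination, 201 and 188 FPKM with LPS, 42.5 and 95.3 FPKM with the antibodies and 59.1 and 43.1 FPKM in untreated cells. All libraries with LPS lay above all without it in both genes. The LPS difference was 0.98 ± 0.13 SE for Psme1 (1.98 times, adjusted p = 0.00055) and 1.92 ± 0.34 SE for Psme2 (3.80 times, adjusted p = 0.0024). The ratio of Psme2 to Psme1 was 1.38 and 1.34 with the combination, 1.53 and 1.55 with LPS, 0.587 and 1.18 with the antibodies and 0.889 and 0.708 in untreated cells. Psme2b is 99.4% identical to Psme2 over 794 aligned bases, so how their reads were split is uncertain. Psme2b stood at 1.77 to 2.93 FPKM.

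Psme3, the nuclear PA28 gamma, stood at 69.1 and 71.2 FPKM with the combination, 66.8 and 68.1 FPKM with LPS, 122 and 76.7 FPKM with the antibodies and 108 and 114 FPKM in untreated cells. Every library with LPS lay below every library without it. The difference was -0.71 ± 0.20 SE with LPS (adjusted p = 0.020) and -0.65 ± 0.20 SE with the combination (adjusted p = 0.026). Both calls were lost under size factors (-0.47 and -0.36) and without either library of the treated group or either untreated one, that of the combination also without either LPS library. The ratio of Psme1 to Psme3 was 2.42 and 2.16 with the combination, 1.96 and 1.78 with LPS, 0.591 and 1.05 with the antibodies and 0.614 and 0.535 in untreated cells. Psme4, which encodes the activator PA200, stood at 11.0 and 12.3 FPKM with the combination, 12.5 and 14.3 FPKM with LPS, 10.6 and 12.5 FPKM with the antibodies and 10.2 and 13.6 FPKM in untreated cells. The combination libraries lay below the LPS ones, and both groups overlapped with untreated cells. Psme3ip1 stood at 10.6 and 11.1 FPKM with the combination, 11.5 and 11.3 FPKM with LPS, 21.4 and 15.4 FPKM with the antibodies and 15.8 and 16.9 FPKM in untreated cells. It was called lower with LPS (-0.48 ± 0.15 SE, adjusted p = 0.030), with the loss of that call when any LPS, combination or untreated library was left out.

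The antibodies alone, against untreated cells, called 3 of the 42 members higher and 0 lower, against 3.04% and 10.6% of all genes. The 3 were Psmc6, Psma4 and Psmd12, whose values are given above. At an unadjusted p under 0.05 there were 7. The median of the members was 0.20, against -0.08 over all genes. In 17 members both antibody libraries lay above both untreated ones and in 4 below, against 16.7% and 35.9% of all genes. The result turned on single libraries. Without antibody replicate 1, 20 members were called higher and 1 lower, against 14.5% and 21.8% of all genes. Without antibody replicate 2, 7 were called higher and 2 lower, against 7.65% and 20% of all genes. Without either untreated library 0 were called, as were 0% of all genes, and Psmd12 lost its call without any 1 of the LPS or combination libraries. In a fit on these 4 libraries alone 0 were called, as were 0% of all genes.

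The combination, against untreated cells, called 27 members higher and 2 lower (Psme3 and Psme3ip1), against 17.3% and 41.8% of all genes. The median was 0.76, against -0.23 over all genes. In 35 members both combination libraries lay above both untreated ones and in 3 below, against 29.2% and 55% of all genes. By role, 7 of 8 alpha, 5 of 7 beta, 4 of 6 ATPases, 1 of 3 other base, 6 of 8 lid, 2 of 3 chaperone and 2 of 4 activator genes were called higher. This comparison and the LPS comparison share the untreated libraries. The higher count was 16 without combination replicate 1 or without untreated replicate 2, against 12.1% and 11.7% of all genes, and the lower count was 0 without either combination library or untreated replicate 2, and 1 without either LPS library or untreated replicate 1. Size factors moved the median of all genes to 0.02 and that of the members to 1.05, with 36 members called higher and 0 lower, against 28.8% and 28.4% of all genes.

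Set against LPS, the combination gave small positive differences across most members but no call. Of the 42, 0 were called in either direction by limma over all 8 libraries, where 0.36% of all genes were called higher and 1.42% lower, and 12 had an unadjusted p under 0.05. The difference was positive in 37 of 42 members, with a median of 0.27, against -0.02 over all genes, of which 46.7% were positive. That median was 0.16 under quantile normalization, 0.20 with a trend over gene length removed and 0.32 under size factors, against 0.02, 0.01 and 0.03 over all genes. Across the members, which are not independent replicates, Spearman's rho between exon length and this difference was -0.43. In 35 members both combination libraries lay above both LPS libraries and in 3 below, against 28.5% and 35.6% of all genes. The largest difference was that of Psma6 (0.52 ± 0.19 SE, adjusted p = 0.20). Next came Psmc3ip, at 16.2 and 17.1 FPKM with the combination, 12.5 and 11.1 FPKM with LPS, 20.7 and 16.3 FPKM with the antibodies and 12.6 and 13.9 FPKM in untreated cells (0.46 ± 0.14 SE, adjusted p = 0.13). A fit on the 4 libraries of these groups, whose replicates lay closer together, called 19 members higher and 0 lower, against 9.07% and 15.3% of its genes. Psma6 was among them (adjusted p = 0.0070). Without antibody replicate 1 or 2 the fit over the remaining libraries called 9 and 11 higher, Psma6 and Psmc3ip among them, against 4.31% and 4.42% of all genes.

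**Figure D3:**
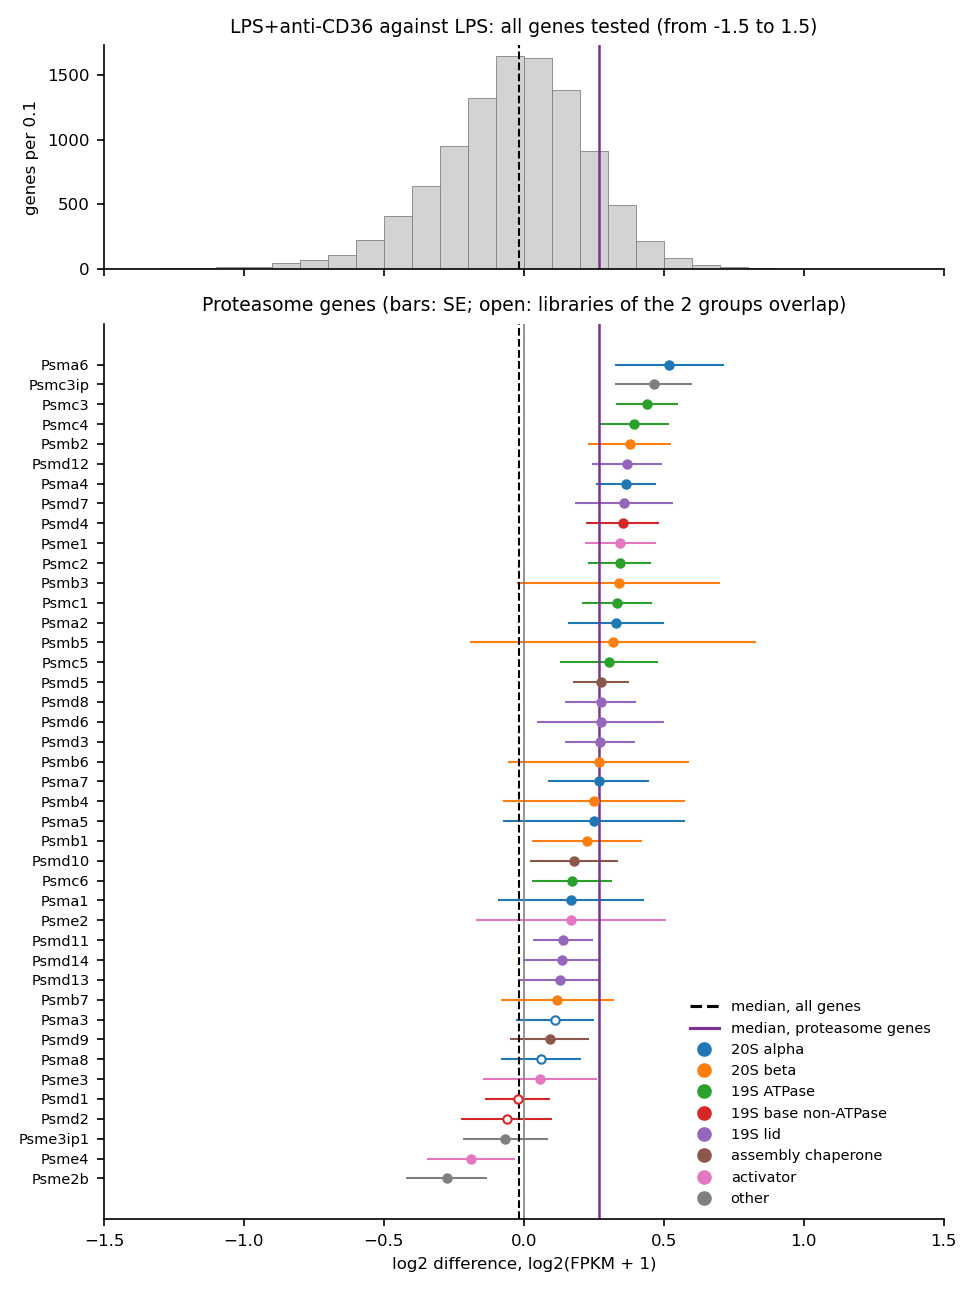
Log2 difference between the combination and LPS (log2(FPKM + 1) scale), as a histogram of the tested genes between -1.5 and 1.5 (top) and for each of the 42 members with its SE (bottom, open points where the libraries overlap). Of the members, 37 lie above 0, with a median of 0.27 (solid line), and the median of all genes is -0.02 (dashed line).

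Set against the antibodies alone, the combination called 15 members higher and 1 lower (Psme3ip1, -0.69 ± 0.15 SE, adjusted p = 0.0079), against 15.4% and 31.7% of all genes. The median was 0.36, against -0.15 over all genes. In 29 members both combination libraries lay above both antibody ones and in 3 below, against 24.9% and 45.5% of all genes. Psma6 (1.98 ± 0.19 SE, adjusted p = 0.00018), Psme2 (1.76 ± 0.34 SE, adjusted p = 0.0044) and Psmd11 (1.42 ± 0.11 SE, adjusted p = 4.9e-05) led. The higher count was 8 without either combination library, against 10.6% and 9.98% of all genes, and 29 without antibody replicate 2, against 25.2%. The lower count was 0 without combination replicate 1 and 3 without antibody replicate 2, against 20.7% and 37% of all genes. The higher count was 28 under size factors, against 23.2% of all genes, and 8 in a fit on these 4 libraries alone, where 10.3% of genes were called higher and 21.8% lower.

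The interaction (combination minus antibodies, less LPS minus untreated) was called for 0 of the 42 members by limma, against 0.00972% of all genes higher and 0% lower, and 2 members had an unadjusted p under 0.05. The median of the members was 0.04. The largest was that of Psmc6 (-0.74 ± 0.20 SE, adjusted p = 0.27), whose level rose with either agent. Psma1 followed (-0.51 ± 0.37 SE, adjusted p = 0.58). Without antibody replicate 1, 1 member was called higher and 2 lower, against 3.56% and 2.45% of all genes.

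The replicates of the antibody group differed most. In 33 of 42 members antibody replicate 2 was higher, with a median difference of 0.24 and a range of -0.67 (Psme3) to 1.81 (Psmb5), and the SD was 0.51, against 0.45 over all genes. In untreated cells replicate 1 was higher in 32 members. The median exon length of the members was 2804 bp, against 4336 bp over the 10034 genes with a length. Across genes, which are not independent replicates, Spearman's rho between length and the difference of replicate 2 minus 1 was -0.21 in the members and -0.33 over all genes in the antibody group, and 0.34 and 0.48 in untreated cells. With the mitochondrially encoded genes left out and the libraries rescaled, 20 members were called higher with LPS, 3 with the antibodies and 14 with the combination against the antibodies, where 16.8%, 3.22% and 12.6% of all genes were. The members' medians were then 0.49, 0.29 and 0.25, against -0.22, -0.01 and -0.25 over all genes. With a length trend removed, 27, 2 and 28 members were called higher in those comparisons, against 27.4%, 3.97% and 24.4% of all genes, and the medians were 0.68, 0.18 and 0.54.

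**Figure D4:**
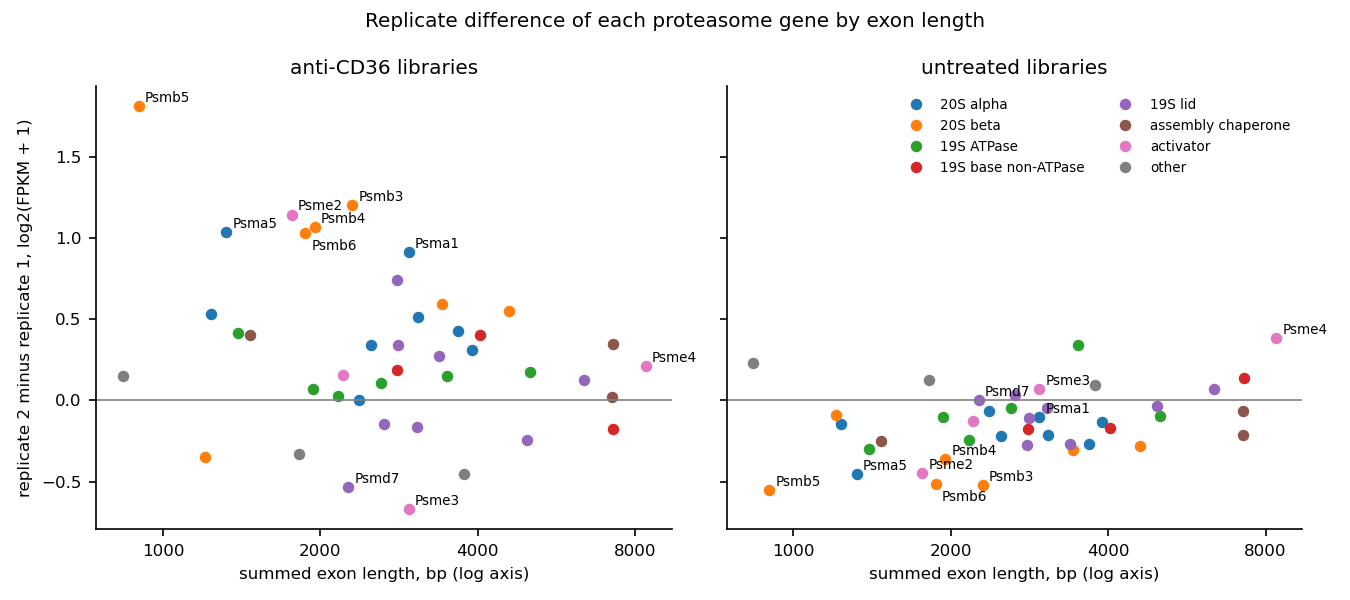
Replicate 2 minus replicate 1 (log2(FPKM + 1) scale) of each member against its summed exon length (bp, log axis), in the antibody group (left) and in untreated cells (right), coloured by role. The antibody group spans -0.67 to 1.81, and Psmb5 is at the top there and at the bottom in untreated cells (-0.55).

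Lists of related genes hold few members, so each count is set beside the 17% of all tested genes called higher and the 37.5% called lower with LPS. Of 5 assembly factors outside the selection 1 was called higher, Pomp, which builds the 20S core. Pomp stood at 42.4 and 37.7 FPKM with the combination, 38.6 and 36.3 FPKM with LPS, 13.3 and 33.7 FPKM with the antibodies and 20.0005 and 13.98 FPKM in untreated cells. Like Psmb5, it differed widely between the antibody libraries (LPS against untreated 1.11 ± 0.37 SE, adjusted p = 0.035), a call lost without any 1 of the LPS, combination or untreated libraries. Of 8 associated proteins 2 were called higher and 1 lower. They were the lid protein Sem1 (1.13 ± 0.28 SE, adjusted p = 0.011), the deubiquitinase Uchl5 (1.09 ± 0.11 SE, adjusted p = 0.00019) and the inhibitor Psmf1 (-0.29 ± 0.10 SE, adjusted p = 0.039, and 0.01 once a length trend was removed). The Sem1 call was lost without either LPS library or untreated replicate 2, and the Psmf1 call without any 1 LPS, combination or untreated library. Of 6 ubiquitin genes 2 were called higher, Rps27a (1.35 ± 0.44 SE, adjusted p = 0.034), which encodes a ubiquitin fusion, and the activating enzyme Uba6 (0.94 ± 0.18 SE, adjusted p = 0.0034). The Rps27a call was lost without either LPS library, either combination library or untreated replicate 2. Of 11 shuttle factors and p97 cofactors 2 were called higher and 5 lower, led by the shuttles Ubqln2 (-1.48 ± 0.16 SE, adjusted p = 0.00024) and Ubqln4 (-1.03 ± 0.14 SE, adjusted p = 0.00072).

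In the NFE2L1 pathway, 1 of 6 genes was called higher and 2 lower with LPS, beside the same shares of all genes. Ngly1, which deglycosylates NFE2L1, was higher by 0.98 ± 0.16 SE (adjusted p = 0.0019), and Ddi2, the protease that cuts it, was at -0.82 ± 0.10 SE (adjusted p = 0.00050). The other gene called lower was Nfe2l2, a call lost in 9 of 19 alternatives, among them size factors and a length trend removed. Its levels were 24.5 and 26.2 FPKM with the combination and 24.5 and 27.2 FPKM with LPS. They were 62.2 and 36.3 FPKM with the antibodies and 41.3 and 46.1 FPKM in untreated cells. Nfe2l1 itself stood at 52.0 and 51.1 FPKM with the combination, 58.8 and 64.0 FPKM with LPS, 31.4 and 32.9 FPKM with the antibodies and 49.8 and 53.5 FPKM in untreated cells. The antibody libraries lay below the other 6, and both Nfe2l1 (-0.67 ± 0.11 SE, adjusted p = 0.016) and Ddi2 (-0.68 ± 0.10 SE, adjusted p = 0.015) were called lower with the antibodies than in untreated cells. Uchl5 was called higher there (0.84 ± 0.11 SE, adjusted p = 0.014). These 3 calls were lost without either untreated library. Against LPS, the combination called 1 of these related genes, the p97 cofactor Nsfl1c, at 44.0 and 46.6 FPKM with the combination, 29.0 and 30.6 FPKM with LPS, 31.8 and 31.0 FPKM with the antibodies and 28.4 and 28.9 FPKM in untreated cells (0.59 ± 0.10 SE, adjusted p = 0.040), a call lost without any 1 of the LPS, combination or untreated libraries.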

How the data were processed

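RNA sequencing of 8 libraries was analysed, grouped by their labels. The authors deposited 1 table of FPKM values with 1 column per library. Per the submitters' processing notes, the tool was HISAT2 2.0.5 and the builds were mm10 and hg38. What hg38 was for, the counter, the annotation and the strand setting are not given in the sources used here. Although the labels also name 10x Genomics, each gene had 1 value per library. No gene of the table is listed at 0.

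Genes reaching an FPKM of 1 in 2 or more libraries entered limma 3.58.1 (R 4.3.3), as log2(FPKM + 1), which understates changes of low genes. The model had 4 group means and a trended empirical Bayes spread (4 residual and 3.46 prior degrees of freedom). Depth came from genes up to 400 bp whose values were whole reads within 0.02 (96.6% to 98.2% of them), and covers counting error only. Coordinates and lengths are from GENCODE M21 (GRCm38). Exons of 13 of 42 members overlap another gene, which makes their values uncertain. Values per library are given for the catalytic subunits, ubiquitin receptors, activators and up to 3 called members per role and comparison with the largest difference (2 where none was called), and for Psmb8 to Psmb10, Nfe2l1, Pomp and Cd36. Of up to 3 called genes per related list that the rule also covers, some are named, most by their differences only. Members and lists were chosen with earlier results of these data known. The script was tested on simulated data. The alternatives were pseudocounts of 0.1 and 5, other filters, normalizations and spreads, a replicate block and leaving out each library.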

Additional observations from a re-analysis of the deposited data

Results flagged for a closer look

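In 2 lid genes both combination libraries lay above both LPS libraries, whereas both antibody libraries lay below both untreated ones. The share of all tested genes with that pattern was not counted. For Psmd11, a scaffold of the lid, the combination differed from LPS by 0.14 and the antibodies from untreated cells by -0.13 on the log2(FPKM + 1) scale. For Psmd3, another lid subunit, the values were 0.27 and -0.14. Psmd3 stood at 58.4 and 52.5 FPKM with the combination, 44.7 and 46.7 FPKM with LPS, 43.1 and 36.3 FPKM with the antibodies and 44.1 and 43.1 FPKM in untreated cells. Its nearest antibody and untreated libraries, at 43.107 and 43.124 FPKM, were nearly equal. The difference between the effects was tested by the limma interaction and was not called (Psmd11 0.27 ± 0.15 SE, adjusted p = 0.46, and Psmd3 0.41 ± 0.18 SE, adjusted p = 0.37).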

How the results depend on the processing

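Counts of called members moved with the processing. With size factors, LPS against untreated called 0 lower (median 0.74), the combination against untreated 0 lower (median 1.05) and against the antibodies 28 higher. With a length trend removed, LPS against untreated called 1 lower (26.8% of all genes) and the combination against the antibodies 28 higher (24.4%). Quantile normalization left 1 lower in the combination against untreated, against 30.2% of all genes. Fits on only the groups compared called 0 higher for the antibodies, 19 for the combination against LPS and 8 against the antibodies. Leaving out 1 library gave, for LPS against untreated, 11 to 25 higher, 0 to 3 lower and a median of 0.37 to 0.58; for the antibodies 0 to 20, 0 to 2 and 0.06 to 0.35; for the combination against untreated 16 to 33, 0 to 2 and 0.63 to 0.85, against LPS 0 to 11 higher and 0.20 to 0.29, and against the antibodies 8 to 29, 0 to 3 and 0.27 to 0.55. The interaction had 0 to 1 higher, 0 to 2 lower and a median of -0.10 to 0.20. The cause was not tested.

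The sign changed for Psmf1 (LPS 0.0069), Nfe2l1 (combination against untreated 0.37) and Psme4 (0.44) with the length trend removed, and for Psmb5 (antibodies -0.90, and 0.92 without replicate 1) and Psmb9 (-0.56 and 0.64) without antibody replicate 2. With a replicate block the higher and lower calls were 17 and 2 for LPS (15.9% and 35.6% of all genes). They were 2 and 0 for the antibodies (1.58% and 6.8%) and 23 and 3 for the combination against untreated (16% and 40.4%). Against LPS the combination had 0 and 0 (0.0972% and 0.35%), and against the antibodies 13 and 1 (13.8% and 29.4%). The interaction had 0 (0.00972% and 0%). Same-numbered libraries correlated at -0.65 to 0.53 between groups. With 1 replicate difference per group, this cannot show whether the numbers pair the samples. Of the single-gene results under alternatives, 4925 kept direction and side of the threshold. With the same sign, 185 newly passed it and 248 no longer did. Another 161 changed sign without a call. Among these were the antibody differences of Psmb4 (-0.48), Psmb6 (-0.42) and Psmb8 (-0.37) without antibody replicate 2. Depth does not limit the members beyond Psme2b.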
